A study of Homo sapiens with 4 samples.

Results

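GC-AG introns begin with GC in place of the usual GT and end, like most introns, in AG. They were taken here as the splice junctions that the alignment files mark with the GC/AG motif, on either strand, and that had at least 20 uniquely mapped reads in each of the 4 libraries. This gave 1145 junctions out of 16165 GC/AG junctions with any read and 920015 junctions of all motifs. The reference was the 128690 GT/AG junctions that met the same minimum. The members were chosen by these read counts, so their abundance is a description, and a GC/AG intron lost from even 1 library cannot be among them. At the edge of the rule, 12 members had a lowest count of 20, with 98 to 148 reads over the 4 libraries, and 14 GC/AG junctions with a lowest count of 19, with 81 to 125 reads, were left out.

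The libraries came from HEK293T, a human embryonic kidney line, transfected by Lipofectamine with an expression vector for SF3B1. One library each was made for the wild-type protein (WT), for the R625H and the K666T substitution, both with 1000 ng of plasmid, and for the K700E substitution with 2000 ng; the labels state no amount for WT. The cells keep their own SF3B1, no untransfected library was analysed, and K700E and the doubled plasmid cannot be told apart. With 1 library per vector no difference has a replicate check, and every interval and p-value below covers counting error between libraries, not the spread between cultures.

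At the start of splicing the U1 snRNP pairs its RNA with the donor, the last exon bases and the opening bases of the intron, and U6 later takes its place. A C at the second intron base breaks 1 of those base pairs, and GC donors are known for matching U1 closely at the other positions. Many are used beside a competing GT donor, as alternative 5' splice sites. SF3B1 acts at the other end of the intron: it belongs to the U2 snRNP, which binds the branch point, and its cancer-associated substitutions are known for shifting acceptor choice to sites a short way upstream.

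The donors below are shown because they carry the results that follow. Each runs 5' to 3' on the transcribed strand, 10 exon bases and then 16 intron bases, with intron bases 1 to 6 in capitals. The letters come from GENCODE 29 transcripts that retain that stretch of intron, joined to the hg19 junctions by intron lengths and spacing. All 323 GC donors and all 21961 GT donors that could be read in this way carried the motif given in the files. Of the most heavily read members, the donors shown are
RPS27A GC donor: gataaggaagGCAAGTagtattttgt
RACK1 GC donor: atctcacaacGCAAGTagctgctcac
HSPD1 GC donor: cacagtaaagGCAAGTgtgtttgtat
BTF3 GC donor: tattgaagagGCAAGTatcaaatttt
HNRNPU GC donor: agaggaggagGCAAGTtaattttgag
The next pairs share an acceptor and compete for it, with the GT donor downstream of the GC donor by 102 nt in CIRBP and 36 nt in CSNK1A1.
CIRBP GC donor: gaccaggcagGCAAGTcgtcagacaa
CIRBP GT donor: ttctctagagGTGAGTgccatgagtg
CSNK1A1 GC donor: acccccacagGCAAGCaaactgacaa
CSNK1A1 GT donor: aacatgaaagGTTAGTagccaagaac
In 4 further pairs the GT donor lies 4 nt downstream of the GC donor, so the stretches overlap.
FANCA GC donor: caagggtcagGCAGGTgcaagggcca
FANCA GT donor: ggtcaggcagGTGCAAgggccagtcc
METTL23 GC donor: aagttaggagGCAAGTatggatgacc
METTL23 GT donor: taggaggcaaGTATGGatgaccctta
SAT2 GC donor: aagactgcagGCCGGTaacccggggg
SAT2 GT donor: ctgcaggccgGTAACCcgggggtcag
TMCO6 GC donor: ggagcgggagGCAGGTgtgggcggcc
TMCO6 GT donor: cgggaggcagGTGTGGgcggccgagg
The last set holds some of the members that stood apart in level, shown because they look unlike the other donors.
FBL GC donor, intron of 173 nt: cgaggcggagGCTTTAgaggtcgtgg
FBL GC donor, intron of 212 nt: ggtcgtggagGCCGAGggggctttgg
FTH1 GC donor: cgcagccaccGCCGCCgccgccgcct

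Donors were scored by how many of 8 positions carried the base that pairs with U1: the last 3 exon bases, for which the consensus is CAG, intron base 1 (G) and intron bases 3 to 6 (AAGT), with intron base 2 left out. GC donors had a median of 6 matches and GT donors a median of 5. At least 7 matches were found in 138 of 323 GC donors (42.7%) and in 1780 of 21961 GT donors (8.11%), and all 8 in 8.67 and 0.597%. The CIRBP GC donor matched at 8 positions, those of RPS27A, HSPD1, BTF3 and HNRNPU at 7, and the FBL donors at 3. The FTH1 donor, in a run of GCC repeats, matched at 1. Other readable members that stood apart in level ran from 3 at EEF1A1 to 8 at CYB561D2 and KHSRP. Donors readable in transcripts are a selected subset, because some transcript must retain the start of the intron.

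By position, intron base 3 was A in 77.4% of GC donors and 54.2% of GT donors, and intron base 3 was G in 7.43 and 38.1%. Base 5 was G in 82.0 and 75.6%, and base 6 was T in 58.8 and 44.8%. The whole run AAGT at intron bases 3 to 6 was present in 123 GC donors (38.1%) and 10.9% of GT donors. The exon side could be read for every member matched to an annotated intron: 901 of 1070 exons (84.2%) ended in AG, against 56.1% of 120938 exons before GT donors. Exon base -3 was the position with almost no difference, C in 36.2 and 35.6% of readable donors.

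**Figure D1:**
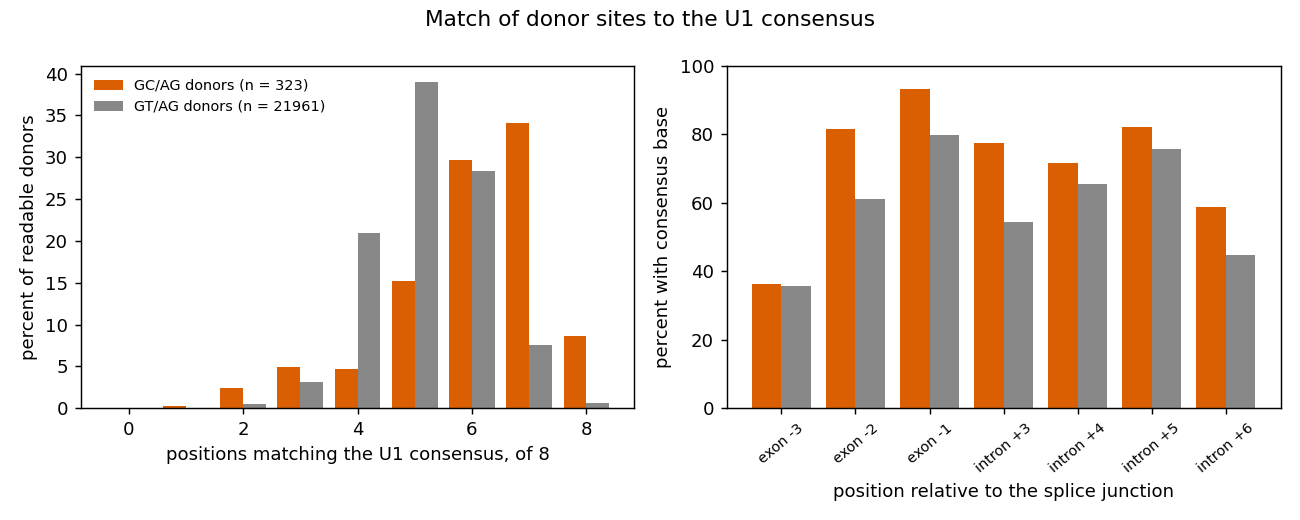
Left, the percent of readable donors (323 GC/AG, 21961 GT/AG) with each number of positions, of 8, matching the U1 consensus; right, the percent with the consensus base at each exon or intron position. GC donors peak at 7 matches and GT donors at 5, and GC donors are above GT donors at every position shown, by the least at exon base -3.

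Of the 1145 members, 1070 lay on an annotated intron, under 951 gene labels. Of these labels, 106 held 2 or more members and none more than 3, among them BRD9, PKM, FANCA and ANKRD17. Coding introns made up 82.4% of the annotated members, against 90.7% of annotated GT/AG junctions, and introns of the 5' UTR 9.53% against 5.69%. The median intron was 1081 nt long, against 1564 nt. The remaining 75 members matched no annotated intron and held 4.04% of member reads; 12 of them were shorter than 60 nt, including a 44-nt gap in the mitochondrial genome, and 18 had more than 20% multi-mapped reads. In the whole set 87 members passed 20% multi-mapped reads, a mark of near-identical copies elsewhere, and their counts are uncertain.

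Members held 82.2, 79.7, 80.9 and 86.9% of all GC/AG reads in WT, R625H, K666T and K700E. All GC/AG junctions together took 0.901% of unique junction reads in WT (Wilson 95% interval 0.899 to 0.903), and the mutant libraries stood at 0.937, 0.925 and 0.888% in the same order. The 8 most heavily read members held 27.5% of member reads. RPS27A, which encodes ubiquitin fused to a ribosomal protein, had 36062, 35662, 33313 and 42162 reads in WT, R625H, K666T and K700E, at chromosome 2, 55460554 to 55461254 (hg19, as for all positions here). RACK1, a scaffold protein of the small ribosomal subunit, had 34704, 32125, 34393 and 36444. The intron of SOD1, the cytosolic superoxide dismutase, had 15555, 14189, 14308 and 16701 reads, and that of HSPD1, the mitochondrial chaperonin, 13622, 12992, 13187 and 14652. BTF3, of the nascent polypeptide-associated complex, had 13381, 12512, 13086 and 10998, with the lowest count in K700E. PKM, pyruvate kinase, had 2 members in this group, and HNRNPU, a nuclear RNA-binding protein, the eighth. Scaled to junction reads, the 8 lay within 0.28 log2 units of WT in every mutant library, the farthest being HNRNPU in K700E.

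The first question was whether the GC donor kept its share against a GT donor that feeds the same acceptor. At 304 members no GT/AG read ended at the acceptor in any library. A GT/AG junction with at least 20 reads over the libraries shared the acceptor of 386 members (33.7%), and the strongest such junction was taken as the partner. The GC/AG junction thus needed 20 reads in each library and the partner only 20 in sum. A partner low in WT and high in a mutant could enter, and such a pair reads as a fall of the GC donor. The GC donor share is the percent of the reads of the pair on the GC/AG junction. In WT its median over the 386 pairs was 85.7%, with 164 pairs above 90%, 170 from 10 to 90% and 52 below 10%. The medians in R625H, K666T and K700E were 83.8, 82.0 and 82.6%. The median difference from WT was -0.002, -0.12 and -0.31 points, and 309 pairs (80.1%) spanned less than 10 points over the 4 libraries. Over 28611 pairs of GT/AG junctions that share an acceptor (GT-GT pairs), the median difference was -0.24, -0.35 and -0.50 points. The median span over the libraries was 4.09 points in GC pairs and 3.20 in GT-GT pairs.

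Competition was often close by. In 157 pairs the donors lay at most 300 nt apart, and in 75 of these (47.8%) the distance was a multiple of 3, against 37.6% of 7183 GT-GT pairs that near. Both donors could be read in 36 near pairs. The GC donor had more U1 matches in 33, the same number in 3 and fewer in 0. The score leaves out the intron base after the opening G, where only the GT donor pairs, which lifts the GC donor here. Where the GT donor lies 4 nt downstream, the spacing adds matches to the GC donor too, as given below. The median GC share in WT was 33.3% over these 33 and 66.8% over all 157 near pairs. Over the 157 it was 74.6, 72.9 and 71.3% in R625H, K666T and K700E. These medians are not differences within pairs. Pairs could be read only where a transcript retains the start of the intron, so the 33 are a selected set. CIRBP is 1 such pair, with 8 matches at the GC donor and 6 at the GT donor.

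Fisher's exact test, two-sided, compared the reads of each pair between libraries, and the Benjamini-Hochberg method adjusted the p-values over all 28997 pairs. A pair was called when its share moved by 10 points or more with an adjusted p below 0.05. Of the 386 GC donor shares, 4 fell and 0 rose in R625H against WT, where 1.05% of 28611 GT-GT pairs were called, 0.384% up and 0.661% down. That split depends on the settings: at a call of 5 points 5 rose and 7 fell, and with multi-mapped reads added 4 rose and 7 fell. Those calls were 3.11 and 2.07% of GC pairs, with 1.96 and 2.01% of GT-GT pairs called. In a GT-GT pair the share is that of a junction that itself met the minimum of 20 reads; where both did, which of them was taken is arbitrary, and so is the direction. In K666T 2 rose and 2 fell, with 1.4% of GT-GT pairs called, 0.517% up and 0.881% down. In K700E 7 rose and 7 fell, or 3.63% of the GC pairs, with 3.07% of GT-GT pairs called, 1.16% up and 1.9% down. With at least 20 partner reads in each library, 195 GC pairs were left. Of these, 0 rose and 3 fell in R625H, 2 rose and 0 fell in K666T, and 6 rose and 6 fell in K700E. That was 1.54, 1.03 and 6.15% of the GC pairs, with 1.20, 2.04 and 5.80% of GT-GT pairs called under the same setting. Between mutants, the calls numbered 1 for R625H against K666T (0.44% of GT-GT pairs), 6 for R625H against K700E (1.73%) and 10 for K666T against K700E (1.5%). In 5 of the 6 comparisons the GC pairs stayed within 1 percentage point of the GT-GT background, and for K666T against K700E they reached 2.59%.

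**Figure D2:**
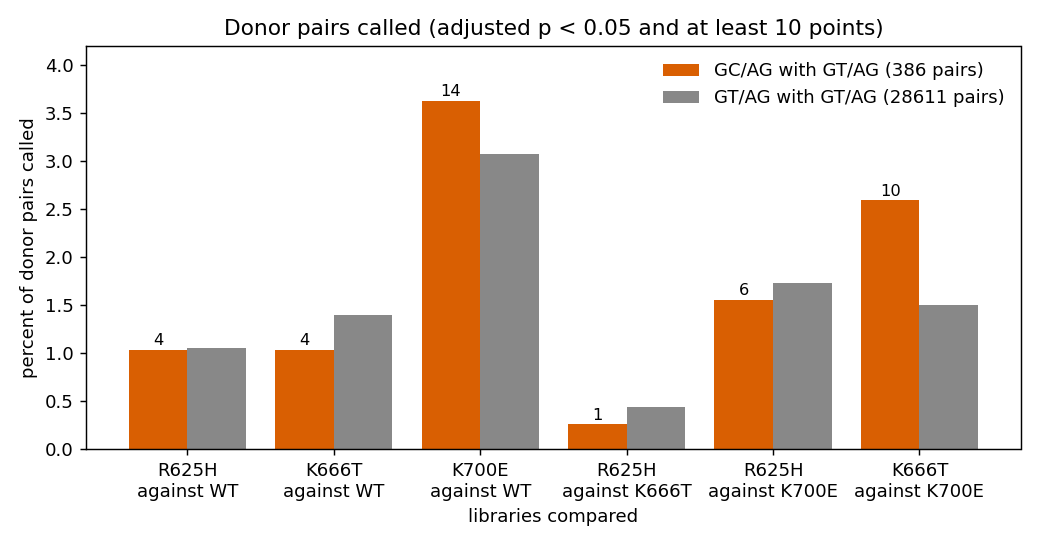
Bars give the percent of donor pairs called in each comparison of 2 libraries, for 386 GC/AG with GT/AG pairs and for 28611 pairs of GT/AG junctions; numbers above the orange bars are called GC pairs. The comparisons of K700E with WT and with K666T have the highest bars for GC pairs, 14 and 10 calls, and the GT-GT bar is also highest for K700E against WT.

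CIRBP, the cold-inducible RNA-binding protein, had the lowest GC share among the calls in K700E. Its GC/AG intron (chromosome 19, 1271365 to 1271549) had 50 of 278 reads in WT, or 18.0% (Wilson 95% interval 13.9 to 22.9), and its share was 19.03% for R625H, 21.7% for K666T and 4.46% for K700E (3.65 to 5.44). K700E stood alone below the other libraries. The reads show what moved: the GT donor had 228, 217, 217 and 1971 reads in WT, R625H, K666T and K700E, and the GC donor 50, 51, 60 and 92. The adjusted p of the exact test was 3.85e-12 for K700E against WT. At the gene level CIRBP had 125, 132, 138 and 156 CPM (gene counts scaled to the library's total).

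UBE2D3, a ubiquitin-conjugating enzyme, was the deepest called pair. Its GC donor in the 5' UTR (chromosome 4, 103747794 to 103748748) took 38.95% of 2829 reads in the WT library; R625H stood at 40.8%, K666T at 45.1% and K700E at 49.1%, and only the rise of 10.2 points in K700E was called (adjusted p of the exact test 2.62e-13). The intervals of K666T (43.2 to 47.0) and K700E (47.4 to 50.9) do not touch that of WT (37.2 to 40.8). Counted against all GT/AG junctions at its acceptor summed, the K700E difference was 4.57 points and not called.

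The other rises in K700E described here rested on fewer reads. MRE11, a nuclease of double-strand break repair, had 37.2, 38.7, 37.03 and 47.5% in WT, R625H, K666T and K700E. KRIT1, a gene of cerebral cavernous malformation, had 23.2, 29.5, 30.5 and 37.99% in WT, R625H, K666T and K700E. TRIM11, a ubiquitin ligase, had 13.0, 18.3, 17.5 and 23.7%. C1orf109 had 48 GC and 32 GT reads in WT, and shares of 79.4, 70.8 and 81.9% in the mutants. An unnamed intron on chromosome 1 (235658139 to 235659495) had 49.2, 61.6, 61.1 and 71.4%. In these last 4 pairs WT was the lowest library and K700E the highest. The C1orf109 values rest on 34 to 83 reads a library, and the C1orf109, KRIT1 and MRE11 rises were not called when multi-mapped reads were added.

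Falls in K700E were found in genes of varied function. AP3M1, a subunit of the AP-3 adaptor of endosomal sorting, had 61.2, 62.0, 64.8 and 45.7% in WT, R625H, K666T and K700E, at a 5' UTR intron (chromosome 10, 75898141 to 75898563). K700E was the sole low library, with an interval of 40.9 to 50.6. SELENBP1, a selenium-binding methanethiol oxidase, had 79.9, 66.1, 73.3 and 60.7%, and fell in R625H and in K700E. DCAKD, a gene with a dephospho-CoA kinase domain, had 31.4, 17.9, 27.4 and 18.5% and also fell in both. ANKRD17, an ankyrin repeat protein, had 84.0, 73.2, 78.8 and 72.4%, again with falls in R625H and K700E. PNPLA8, a calcium-independent phospholipase, had 99.3% in WT, 96.5% in R625H and 88.0% in K700E, with 252 GC and 28 GT reads in K666T, and its GT partner went from 2 reads in WT to 31 in K700E.

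RACK1 gave the widest difference and the least settled one. Besides the main intron above, its GC donor feeds a rare acceptor (intron 180668564 to 180669173 on chromosome 5) with 64, 80, 89 and 79 reads in WT, R625H, K666T and K700E. At that acceptor an unnamed GT/AG junction had 0, 78, 777 and 65 reads, so the GC share read 100.0, 50.6, 10.3 and 54.9%. All 3 mutant shares were below WT and K666T was below the other 2, but the GC reads themselves stayed between 64 and 89. With all GT/AG junctions at the acceptor summed, the R625H and K700E differences turned to rises of 40.8 and 43.0 points, so the direction depends on the partner chosen.

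K666T had calls of its own. C16orf95 rose from 46.3% of 54 reads in WT to 76.6% of 64 reads, with 53.5% in R625H and 58.3% in K700E. FAM120AOS, a gene beside FAM120A, rose from 58.4% in WT to 69.9%, with 62.1% in R625H and 52.5% in K700E. PIBF1, a centrosomal protein, fell from 93.9 to 80.9%, with 89.95 and 85.2% in R625H and K700E; its GT donor had 15 reads in WT and 43 in K666T. The 4 calls in R625H were RACK1, SELENBP1, DCAKD and ANKRD17. All comparisons with WT share the WT library, so they are not independent of one another.

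Direct tests between mutants named other genes. K700E was below K666T at RBM41, an RNA-binding protein, with 51.5, 53.5, 63.0 and 42.5% in WT, R625H, K666T and K700E. NUDT6, a nudix hydrolase, had 51.9, 57.3, 53.9 and 33.7%, and the test between R625H and K700E was passed while that against WT was not. NIPAL3, a relative of magnesium transporters, had 79.4, 84.3, 82.7 and 68.2%, with K700E below both other mutants. ZNF561, a zinc finger gene, had 21.6, 28.9, 20.9 and 13.5%. K700E was the highest library at ZNF821 (87.0, 84.2 and 97.2% in WT, K666T and K700E), at PARP6, an ADP-ribosyltransferase (66.8, 58.9 and 71.3%), and at AC118549.1 (43.9, 35.7 and 49.9% in WT, R625H and K700E).

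**Figure D3:**
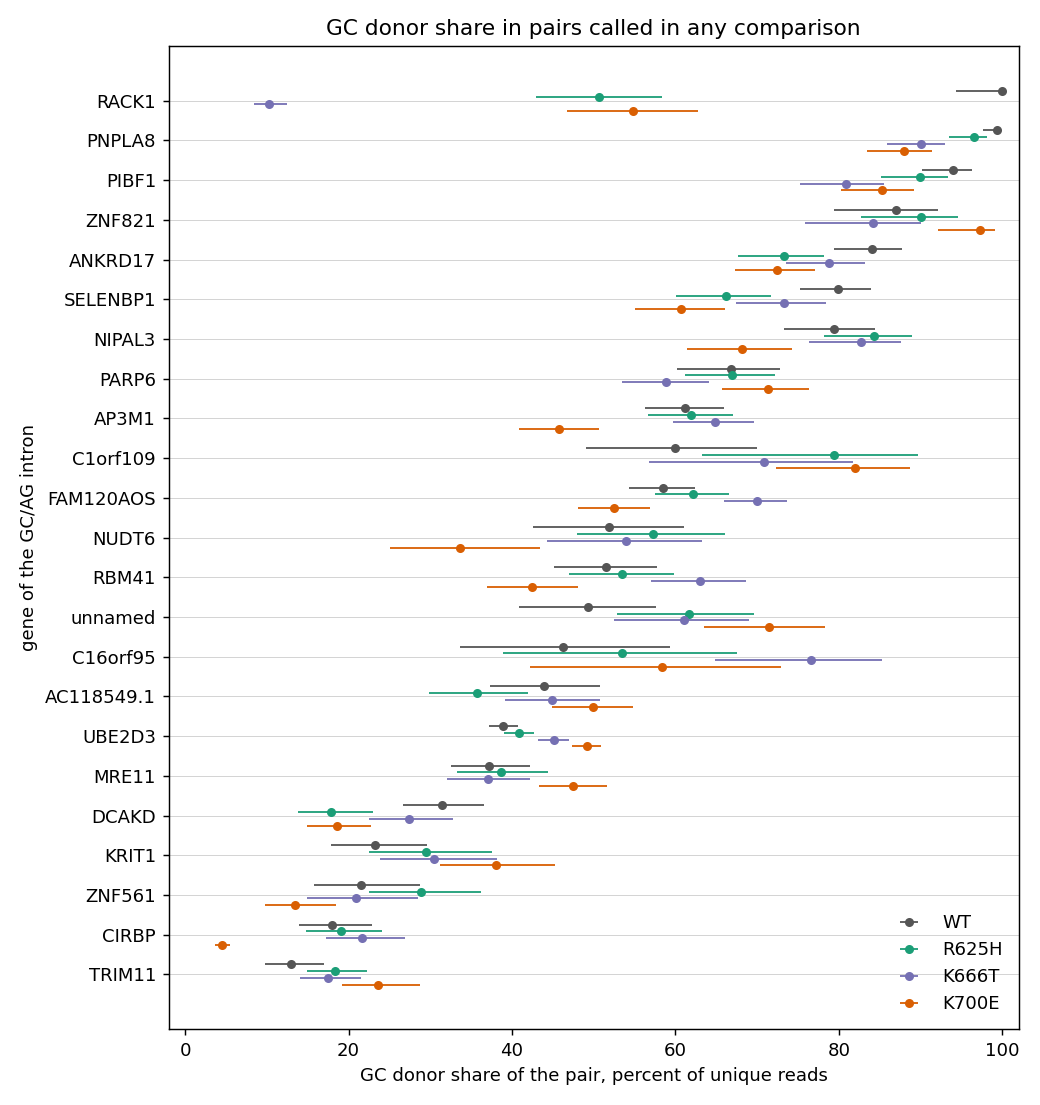
GC donor share of the pairs called in any of 6 comparisons and described in the text, by library, with Wilson 95% intervals from the reads of the pair. K700E stands apart from the other 3 libraries, with no overlap of intervals, at CIRBP, AP3M1 and UBE2D3, and the RACK1 points spread from 10.3 to 100.0%.

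The called pairs were also read by position of the donor in the transcript. In K700E against WT the donor farther upstream gained share in 11 of the 14 called GC pairs. The exceptions were CIRBP, ANKRD17 and the unnamed chromosome 1 pair. The upstream donor likewise gained in 614 of 877 called GT-GT pairs (70.0%), so the lean is shared with pairs that hold no GC donor. In R625H it gained in 3 of 4 called GC pairs and 56.5% of called GT-GT pairs, and in K666T in 4 of 4 and 61.2%. Of the 14 K700E calls, 7 were on 5' UTR introns, which made up 78 of the 386 pairs; among GT-GT pairs 180 of 3253 on 5' UTR introns were called, so these were over-represented there as well. K700E junction counts also ran higher in 5' UTR introns of both kinds, as given below; the part of this in the donor shares was not tested.

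The deepest pairs with a mid-range share were UBE2D3, above, and 9 others, none of which was called. MRPL51, a mitochondrial ribosomal protein, had 13.3, 12.2, 12.9 and 16.9% in WT, R625H, K666T and K700E over 4318 to 4771 reads a library. U2AF2, the large subunit of the factor that binds the polypyrimidine tract, has a GC donor 12 nt downstream of a GT donor (intron 56180548 to 56180809 on chromosome 19) and had 21.5, 23.2, 20.4 and 23.9%. CCDC58 had 10.1, 11.1, 10.7 and 10.7%, and CTTN, the actin-binding protein cortactin, 82.7, 79.8, 79.5 and 81.8%. In these 4 pairs the libraries lay within 5 points of one another. MAZ, a zinc finger transcription factor, ran lower in each mutant, with 18.97, 17.5, 14.6 and 12.3%, and TXNDC17, a thioredoxin-like protein, higher, with 13.3, 15.7, 15.1 and 18.5%. OS9, a lectin of endoplasmic reticulum quality control, had 80.7, 83.5, 85.5 and 83.1%, and CHID1 25.9, 22.8, 23.3 and 19.3%. CSNK1A1, casein kinase 1 alpha, had 45.0, 39.9, 37.5 and 37.7%, with all 3 mutant libraries below the WT interval of 42.6 to 47.4. None of these 9 pairs reached 10 points, but depth makes smaller differences exceed counting error. The adjusted p of the exact test for K700E against WT was 4.35e-14 at MAZ (-6.70 points), 1.56e-06 at TXNDC17 (5.26), 6.34e-05 at MRPL51 (3.51), 0.00054 at CSNK1A1 (-7.29) and 0.00108 at CHID1 (-6.59). For K666T against WT it was 5.9e-06 at MAZ, 0.000461 at CSNK1A1 and 0.0197 at OS9.

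The tightest competition was between a GC donor and a GT donor 4 nt downstream, in 18 pairs. In a coding exon, use of the other donor shifts the reading frame. The median GC share was 43.4% for WT, and 52.1, 56.4 and 50.3% for the mutants R625H, K666T and K700E. These medians are set by the pairs in the middle of the range, among them C16orf95 and TMCO6, which had few reads. They are not differences within pairs. Single pairs covered nearly the whole range. GANAB, the catalytic subunit of glucosidase II, used the GC donor for 0.82, 1.28, 1.53 and 1.18% of reads in WT, R625H, K666T and K700E. TALDO1, transaldolase, had 2.14, 2.09, 2.57 and 2.09%. At the other end METTL23, a methyltransferase-like protein, had 97.8, 98.7, 97.2 and 98.3%, and FANCA, of the Fanconi anaemia DNA repair pathway, 81.2, 84.1, 81.7 and 84.4%.

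In the printed pairs 4 nt apart the GC site had more U1 matches than the GT site each time. The GC share in the 4 libraries ran from 13.1 to 98.7%. FANCA has 7 matches at the GC site and 4 at the GT site, and METTL23 7 and 5. SAT2 and TMCO6 each have 6 and 5. This order is partly set by the spacing and the score. The GT of the downstream donor fills intron bases 5 and 6 of the GC donor, both matches. In return the GT site gains only the C of the GC donor, as an exon base. The score leaves out the intron base after the opening G, where only the GT site pairs. With that base counted, SAT2 and TMCO6 would tie. The counts therefore cannot decide which site pairs better with U1. SAT2, a spermidine acetyltransferase relative, had 13.7, 13.1, 17.3 and 14.2% on the GC site, while TMCO6 had 38.2, 50.7, 51.2 and 43.6% on 41 to 76 reads a library. PRNP, the prion protein gene, had 40.4, 45.2, 42.5 and 40.8% and TRIT1, a tRNA-modifying enzyme, 18.2, 22.6, 29.7 and 29.3%. RAD9A, of the DNA damage checkpoint clamp, had 15.8, 19.9, 28.98 and 21.8%. Among the 18, the call at C16orf95 in K666T was the single one.

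**Figure D4:**
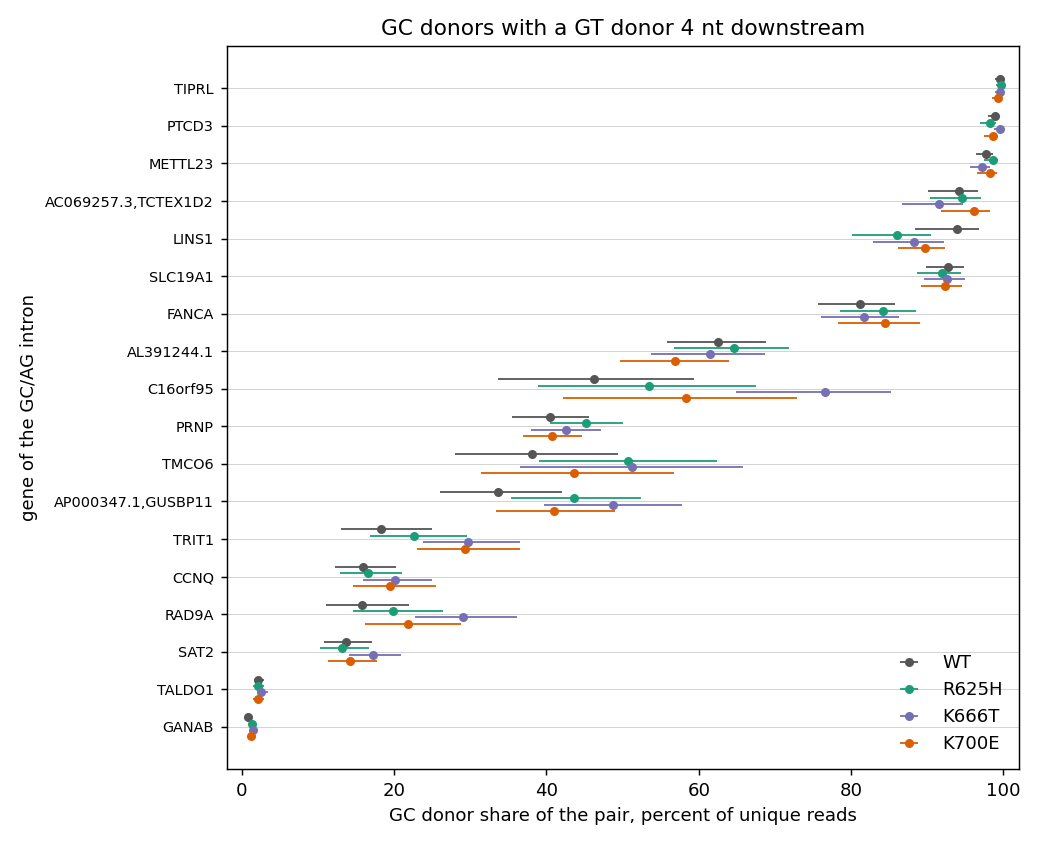
GC donor share, with Wilson 95% intervals, in each library for the 18 pairs whose GT donor lies 4 nt downstream of the GC donor. Shares run from about 1% in GANAB to above 99% in TIPRL, and within nearly every pair the 4 libraries overlap; C16orf95 in K666T is the called point.

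Since SF3B1 mutants are known for acceptor shifts, acceptor choice on GC donors was also measured, as the share of reads on the upstream of 2 acceptors 3 to 100 nt apart. Only 37 acceptor pairs were found on 1109 member donors, or 3.34 per 100 donors, against 47.5 per 100 GT donors. The minimum of 20 reads in each library applied to the sum of a pair, and the second acceptor needed only any read. Pairs with few reads on the second acceptor can hardly reach a call. The 47.5 is approximate, because the 56800 pairs on other donors were not limited to the 119555 GT donors they were divided by. By default the aligner penalises an unannotated GC/AG junction more than a GT/AG one and keeps it away from other sites; the settings used are not given, and the part of this in the count was not tested. None of the 37 was called in any mutant by the exact test, at 0.942, 0.801 and 0.871% of pairs on the other donors called in R625H, K666T and K700E. Of the 37, 3, 1 and 2 had an unadjusted p of the exact test under 0.05. Only 9 of the 37 were 10 to 30 nt apart, where 1.3, 0.967 and 1.0% of pairs on the other donors were called.

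At the 5 pairs with the most reads the upstream share stayed within 3 points of WT. RACK1 used its upstream acceptor for 99.8, 99.8, 99.7 and 99.8% of reads in WT, R625H, K666T and K700E, and SEPT8, a septin, for 67.9, 66.7, 68.0 and 68.5%. IMPDH1 had 91.9, 94.7, 93.4 and 94.7%, SNX1, a sorting nexin, 97.9, 97.6, 98.6 and 98.7%, and the pair at ZBED6 and ZC3H11A 1.16, 0.852, 0.393 and 0.762%. Others spread more. SAAL1, at acceptors 3 nt apart, used the upstream one for 75.1, 74.8, 77.8 and 80.2% of reads in WT, R625H, K666T and K700E. PAM, an enzyme of peptide amidation, had 39.5, 35.7, 34.3 and 35.4%, and ELP4, of the Elongator complex, 18.2, 20.3 and 20.9% in WT, R625H and K666T, with 47 upstream and 141 downstream reads in K700E, 6.78 points above WT and not called. MEIS2, a homeobox gene with acceptors 21 nt apart, had 50.4, 49.0 and 47.0% in WT, R625H and K700E with 46 upstream and 69 downstream reads in K666T, 10.4 points below WT and not called. The widest difference, 19.3 points in K700E, was at AL512353.1 with 35 upstream and 16 downstream reads in WT (68.6, 85.5, 70.7 and 87.9%; adjusted p of the exact test 0.154). Over the 37 pairs the median of the largest difference from WT was 3.43 points. At the rate of the other donors fewer than 1 of the 37 pairs would be called, so a count of 0 is not a result about GC donors.

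Levels of the members were compared as the log2 ratio of unique reads scaled to the unique reads of GT/AG, GC/AG and AT/AC junctions of the library, with a prior count of 10 and no test. The median over the 1145 members was -0.005 in R625H, 0.009 in K666T and -0.007 in K700E, against -0.02, 0.01 and -0.04 over GT/AG junctions. At least 2-fold higher than WT were 1, 4 and 28 members, with 0.29, 0.368 and 1.25% of GT/AG junctions that high. At least 2-fold lower were 0, 2 and 7, with 0.0559, 0.0699 and 0.391% of GT/AG junctions. In K700E, 2.45% of members were thus 2-fold higher, as against 1.25% of GT/AG junctions.

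The 28 include members that moved with their gene and members that did not. The 5' UTR intron of USP18, the protease that removes ISG15 in the interferon response, had 254, 329, 295 and 1315 reads in WT, R625H, K666T and K700E, and the gene had 24.5, 33.3, 29.9 and 71.6 CPM. Set against the GT/AG junctions of its gene, a measure taken up below, the USP18 intron was still 1.16 log2 units higher in K700E. TRIM5, a retroviral restriction factor, had 86, 145, 82 and 212 reads, RNF213, a large ubiquitin ligase, 57, 101, 79 and 125, and PSME1, a proteasome activator subunit, 1071, 1229, 1088 and 2147. DDIT3, the stress transcription factor CHOP, had 721, 927, 1157 and 1622, so every mutant was above WT and K700E highest. The K700E value relative to the gene was 0.84 at PSME1 and 0.79 at RNF213, against 0.35 at DDIT3 and 0.06 at TRIM5. Among the 7 low members in K700E, F12, coagulation factor XII, had 93, 49, 30 and 24 reads, LAMA5, a laminin chain, 81, 84, 41 and 32, and LMF2 134, 101, 81 and 52.

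To take the level of the gene out, each member was set against the median of the GT/AG junctions of its gene, where at least 3 of these existed; 979 members had such a value. The medians were 0.02, 0.01 and 0.03 log2 units in R625H, K666T and K700E. At least 2-fold above the gene were 0, 1 and 13 members, with 0.0901, 0.106 and 0.631% of GT/AG junctions that high. The 13 were 1.33% of the members with a value. Among members under 20% multi-mapped, a choice made after seeing the data, 8 of 915 (0.874%) were 2-fold above and 0 below in K700E. Of GT/AG junctions under 20% multi-mapped, 0.711% were 2-fold away in either direction, so the members were near that share. At least 2-fold below were 0, 1 and 0, with 0.0205, 0.041 and 0.202% of GT/AG junctions. The member below was FTH1 in K666T, the ferritin heavy chain, at an 86-nt gap inside GCC repeats of the 5' UTR, with 422, 441, 191 and 223 reads.

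The relative levels in K700E were also read by place in the transcript. The 90 members in the 5' UTR had a median relative level of 0.34 in K700E, against 0.05 in R625H and -0.03 in K666T, and 67 of the 90 were above 0 in K700E. Non-coding members were above 0 as often, 31 of 40, and coding members in 441 of 830. The 5909 GT/AG junctions of 5' UTRs had a median of 0.34 in K700E too, and 0.02 and -0.02 in the others. Coding members stood at 0.01 in K700E and coding GT/AG junctions at -0.01. In K700E the medians of GC/AG and GT/AG introns were within 0.1 log2 units of each other in each of coding, 5' UTR, 3' UTR and non-coding introns. The plasmid amount was also higher for K700E, and the source of the 5' UTR values was not tested.

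**Figure D5:**
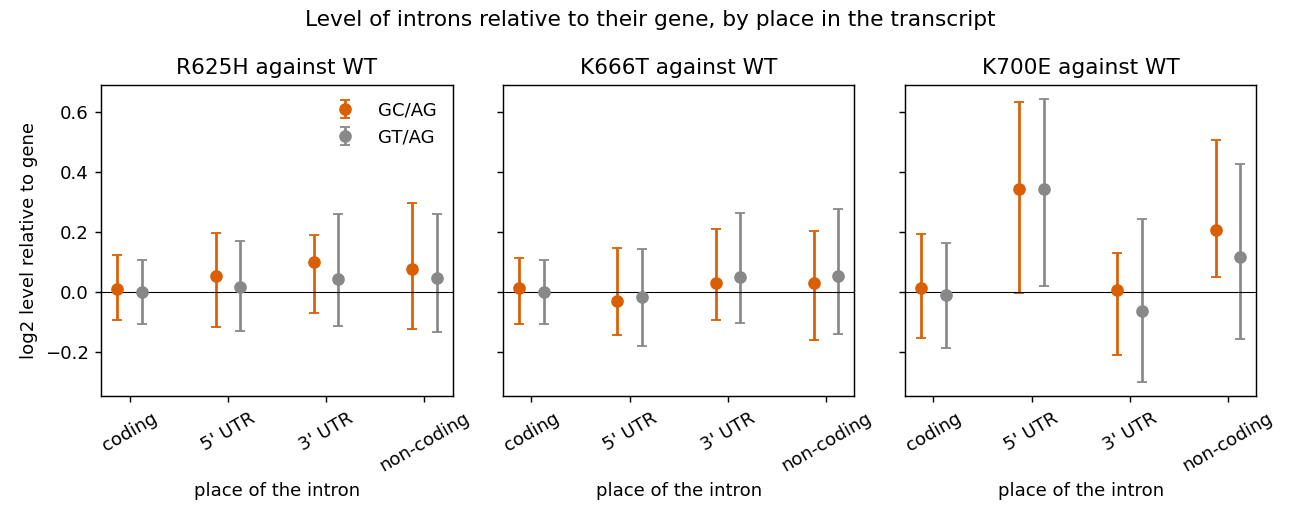
Median (points) and quartiles (bars) of the log2 level of introns relative to the GT/AG junctions of their gene, against WT, by place of the intron, for GC/AG (orange) and GT/AG (grey) introns. In K700E both kinds of 5' UTR intron sit at a median of 0.34, and in R625H and K666T they sit near 0.

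Of the 13 members above their gene in K700E, 7 were 5' UTR introns. FKBP8, a mitochondrial immunophilin, had 2067, 1928, 1955 and 4736 reads at such an intron (chromosome 19, 18652806 to 18654295) in WT, R625H, K666T and K700E, 1.43 log2 units above its gene in K700E, while the gene itself had 283, 263, 255 and 279 CPM. GAR1, a protein of box H/ACA snoRNPs, had 52, 108, 79 and 250 reads and a relative level of 0.84, 0.39 and 1.34 in the mutant libraries. KANK2 had 68, 64, 86 and 158 reads, DIDO1 31, 33, 38 and 81, LAMB2, a laminin chain, 57, 53, 63 and 117, and CYB561D2 86, 94, 69 and 136. In each of these, K700E held the highest count.

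FBL, fibrillarin, the methyltransferase of box C/D snoRNPs, gave the 2 highest values, at gaps whose nature as spliced introns was not tested. These members of 173 nt and 212 nt (chromosome 19, 40331150 to 40331322 and to 40331361) had 68, 66, 68 and 834 reads and 115, 102, 114 and 724 reads in WT, R625H, K666T and K700E. That placed them 3.27 and 2.39 log2 units above the gene in K700E and between 0.02 and 0.13 in the other mutants. Multi-mapped reads made up 56.7 and 65.0% of their reads, and their donors have 3 U1 matches. The unnamed 36-nt gap at 40331362 to 40331397, next to them, had 462, 444, 436 and 2131 reads.

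Other FBL junctions moved with place as well. The GT/AG junction from the first exon (40331428 to 40336930) had 3177, 2924, 3157 and 17849 reads, and the one nearest the 3' end (40325203 to 40325307) 2840, 2624, 2808 and 1737. K700E was thus highest at the 5' end and lowest at the 3' end, and the gene had 328, 316, 321 and 522 CPM. HSPA8, EEF1A1 and PSMB7 members also passed 2-fold in K700E, but 94.4, 94.0 and 79.6% of their reads were multi-mapped, so their levels are uncertain. At KHSRP, whose GC donor has 8 U1 matches, 25, 46, 69 and 36 reads put K666T 1.15 above the gene; 31.8% of its reads were multi-mapped, so this level is uncertain too.

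At the low end of the relative level, averaged over the 3 mutants, KDM4C, a histone demethylase, had 90, 56, 56 and 44 reads, IMPDH1, an enzyme of guanine nucleotide synthesis, 64, 34, 46 and 38, and DCAKD, also called for its share, 104, 48, 78 and 71. WT was the highest library in all 3 of these genes. Their relative levels stayed between -0.26 and -0.92, short of 2-fold.

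Genes that recognise donors were read for their levels, as 13 of the U1 snRNP and its partners, 23 of U6, the tri-snRNP and the handover between them, and 8 SR proteins. None of the 44 was 2-fold higher or lower in any mutant, where 0.653, 0.694 and 1.31% of 14847 genes were that much higher and 0.0269, 0.00674 and 0.438% lower. Their median log2 ratio was 0.02, 0.06 and 0.12 in R625H, K666T and K700E. SNRNP70, the U1 70K protein, had 326, 324, 314 and 325 CPM in WT, R625H, K666T and K700E, and LUC7L3 208, 228, 242 and 227. The core U5 proteins PRPF8 (659, 637, 657 and 691) and SNRNP200 (560, 528, 541 and 533) and the translation-factor-like EFTUD2 (329, 301, 312 and 330) were as close. SRSF3 (626, 680, 670 and 666.4), SRSF1 (498, 525, 545 and 542) and SRSF11 (419, 427, 440 and 423) had their lowest value in WT. The range over the 44 ran from -0.50 at LSM2, of the ring that binds the U6 tail, in K700E to 0.45 at PRPF39, a U1 partner, in K666T, with LSM6 also at 0.45 in K700E.

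Unique junction reads numbered 66015665 to 72034388 a library and stranded gene reads 82254731 to 90939945. SF3B1, the gene of the vector, had 506, 517, 521 and 512 CPM in WT, R625H, K666T and K700E; whether vector reads align to it was not tested, so this does not check the labels. Of the markers of the cell line, VIM had 560 CPM in WT, NEFM 428, KRT8 162, KRT18 64.9 and PAX2 2.3. The leukocyte gene PTPRC was at or below 0.088 CPM and the liver gene ALB at or below 0.422 in every library.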

How the data were processed

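RNA-seq of 4 HEK293T libraries, 1 per vector, was read as stranded 100-bp pairs, per the labels. The authors deposited raw counts of reads per splice junction (uniquely and multi-mapped) and per gene, and an overhang in nt that was not used; the submitters' processing notes name STAR 2.5.3a, HTSeq and hg19/GRCh37 without further settings. Gene counts on the strand opposite to read 1 were used. Members, lists and tests were chosen with earlier results of these data known.

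From these counts, with Python 3.11.15, SciPy 1.17.1 and pandas 2.3.3, the donor shares, the acceptor shares, Fisher's exact tests with Benjamini-Hochberg adjustment, and log2 ratios to WT (prior count 10) were computed. Genes were kept at 1 CPM or more in any library. Junctions were named by matching the intron lengths and spacing of GENCODE 29 genes: of the protein-coding genes that have 2 or more introns, 16050 of 18243 matched. Of 57820 gene IDs, 51996 had an entry in the name table. The share test and the level measure were run on simulated counts with large planted changes and counting error only. The simulation held no spread between cultures, so it cannot show whether the calls would repeat. The text names the pairs called (the 20 with the greatest difference, then the rest; 1 is not reported here), the 8 most read members, the 10 deepest pairs with a WT share of 10 to 90%, and the 5 highest and lowest relative levels; other members were chosen after their values were seen. Alternatives changed the read minimum, call size, partner, multi-mapped reads, prior count and scaling.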

Additional observations from a re-analysis of the deposited data

Results flagged for a closer look

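The GC donor share of 13 genes differed between 2 mutant libraries by the direct Fisher's exact test with Benjamini-Hochberg adjustment (adjusted p under 0.05 and at least 10 points), giving 17 differences. R625H minus K666T, the difference at RACK1 was 40.4 points. R625H minus K700E, it was 23.6 points at NUDT6, 16.2 at AP3M1, 16.1 at NIPAL3, 15.4 at ZNF561, 14.6 at CIRBP and -14.2 at AC118549.1. K666T minus K700E, it was 20.5 points at RBM41, 19.1 at AP3M1, 17.4 at FAM120AOS, 17.2 at CIRBP, 14.5 at NIPAL3, 12.6 at SELENBP1, -10.5 at MRE11, -12.4 at PARP6, -13.1 at ZNF821 and -44.6 at RACK1. With 1 library each, the test speaks of libraries and not of the substitutions.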

How the results depend on the processing

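Of 93 counts recomputed under alternatives, 62 stayed within 1.5 times the reported count and 31 did not; the cause was not tested beyond what the setting itself changes. No paired analysis was possible because each vector has 1 library. For called GC donor pairs, the counts are given for R625H, K666T and K700E against WT (4, 4 and 14 reported) and for R625H against K666T, R625H against K700E and K666T against K700E (1, 6 and 10). With a call at 5 points they were 12, 10 and 31, and 4 and 15 for the next pair of comparisons. In that order they made up 3.11, 2.59, 8.03, 1.04 and 3.89% of GC pairs. Of GT-GT pairs, 1.96, 3.07, 6.14, 0.80 and 3.03% were called. With a call at 20 points they were 1, 2 and 3, and then 1 and 2 for those with K700E. These were 0.259, 0.518, 0.777, 0.259 and 0.518% of GC pairs, beside 0.493, 0.542, 1.003, 0.629 and 0.542% of GT-GT pairs. Adding multi-mapped reads gave 11 and 16 for R625H and K666T, and 6 and 13 between R625H and the other mutants. The GC shares called were then 2.07, 3.01, 1.13 and 2.45% of 531 pairs, and the GT-GT shares 2.01, 2.25, 1.61 and 2.72%. Donors at most 300 nt apart gave 1 for R625H and 5 for K700E, and 2 and 6 for the mutants against K700E. That was 0.505, 2.53, 1.01 and 3.03% of 198 GC pairs, beside 1.43, 2.87, 2.01 and 1.93% of GT-GT pairs. A partner with 20 reads in each library gave 2 for K666T (1.03% of GC and 2.04% of GT-GT pairs). It gave 0 for R625H against K666T, with 0.157% of GT-GT pairs called. Pairs with both junctions annotated, a choice made after seeing the data, gave 1 for R625H and 0 for R625H against K666T. The GC share for R625H was 0.402%, and GT-GT pairs were called at 0.614 and 0.0939%. For 2-fold levels (1, 6 and 35 reported), a prior count of 1 gave 5 in R625H and 11 in K666T, a minimum of 50 reads 2 in K666T, and multi-mapped reads 0 in R625H. The first 3 of these were 0.437, 0.961 and 0.234% of members. The GT/AG shares in the same order were 0.669, 0.885 and 0.211%, and 0.247% with multi-mapped reads. For levels relative to the gene (0, 2 and 13), a prior count of 1 gave 3 in R625H and 23 in K700E, at least 6 GT/AG junctions 1 in K666T, and members under 20% multi-mapped, also chosen later, 1 in K666T and 8 in K700E. In that order these were 0.306, 2.35, 0.114, 0.109 and 0.874% of members. The GT/AG shares were 0.287, 1.42, 0.127, 0.109 and 0.711%. Acceptor calls and the donor recognition list stayed at 0 under each alternative run.

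Of 222 recomputed differences of single pairs, 201 kept their call, 13 lost it and 8 reversed, all 8 at RACK1. With all GT/AG junctions summed its difference from WT was 40.8, 1.62 and 43.0 points in R625H, K666T and K700E, and with donors at most 300 nt apart 4.96 and 3.25 in R625H and K666T and 3.88 for K666T minus K700E. Adding multi-mapped reads gave -0.722 for R625H minus K666T and 0.21 for K666T minus K700E. With all GT/AG junctions summed, TRIM11 (8.8 points) and UBE2D3 (4.57) were not called in K700E. A changed read minimum, or asking that both junctions be annotated, left the reads of a remaining pair as they were. Only the set of pairs in the adjustment differed, so a call kept there was nearly fixed in advance. The 201 kept calls therefore overstate how firm the calls are. Depth limits the pairs with few reads: C16orf95 had 36 to 64 reads a library and C1orf109 34 to 83.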
